A study of Mus musculus with 26 samples.

Results

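The genes described here are those of the synaptic vesicle and of the SNARE machinery that fuses it with the plasma membrane. They were chosen by symbol alone: synaptotagmins (Syt), syntaxins (Stx), syntaxin-binding proteins (Stxbp), vesicle-associated membrane proteins (Vamp), complexins (Cplx), Rim proteins (Rims), Unc13a to Unc13d, synapsins (Syn), the Sv2 family, Rab3a to Rab3d, Snap23, Snap25, Snap29, Snap47 and Snap91. The rule found 70 of the 18193 genes with a probe set of their own on the array, and 67 of these were among the 13951 genes bright enough to be tested. Stx19, Syt3 and Vamp5 were too dim. A single probe set stood for 22 of the 70 genes, and for the other 48 the brightest of several was taken.

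Neurons release transmitter when a vesicle SNARE of the Vamp family winds together with a syntaxin and a SNAP-25 family protein of the plasma membrane. Munc18 proteins (Stxbp genes) and Unc13 proteins prepare that assembly, Rim and Rab3 proteins hold vesicles at the release site, complexins clamp and assist the assembled complex, and synaptotagmins sense the calcium that triggers fusion. In the retina, bipolar cells release glutamate continuously from ribbon synapses, which are known to use Stx3 in place of Stx1a and the complexins Cplx3 and Cplx4. Amacrine and ganglion cells have conventional synapses, with the output terminals of ganglion cells lying in the brain.

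RNA came from neurons of the mouse retina at postnatal day 6, from papain-dissociated cells sorted by a reporter, and was amplified in 2 rounds before hybridization. There were 13 subtypes with 2 arrays each, from separate litters. The ganglion cells (RGC) were BD, J, W3 and W7, sorted as YFP+ Thy1+, Isl2, sorted as bgal+ Thy1+, all on C57BL/6, and Cdh3, sorted as GFP+ Thy1+, whose strain was labelled Swiss Webster x C57BL/7 for one array and Swiss Webster x C57BL/8 for the other. The amacrine cells (AC), inhibitory interneurons, were starburst (Kusabira Orange+ Thy1-), J (YFP+, labelled glycinergic) and PaxCre (GFP+, labelled GABAergic), all on C57BL/6, AII (GFP+, Swiss Webster x C57BL/6), and MP (CFP+ VC1.1+, mixed C57BL/6 x CD1). The bipolar cells (BC) were ON (GFP+, C57BL/6) and MP (CFP+ VC1.1-, mixed C57BL/6 x CD1). Reporters mark lines rather than proven single types, and the promoters that drive them were not given in the sources used here.

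Levels below are log2(intensity + 16) after quantile normalization, on which an intensity of 1, the floor of the deposited values, reads 4.09. A gene passed a comparison at a Benjamini-Hochberg adjusted p under 0.05 (limma) together with a difference of at least 1 log2 unit, and "higher" and "lower" refer to genes that passed. As deposited, the arrays form a brighter set, the 12 of RGC with median intensities of 61.5 to 74.8, and a dimmer set, the 14 others with 37.4 to 47.1, so for comparisons with ganglion cells the array set and the cell class cannot be told apart, whereas bipolar against amacrine cells lies within one set. Marker lists followed the labels: the mean level of 6 ganglion cell markers was 11.56 to 11.98 in the RGC subtypes and at most 7.15 elsewhere. The 5 amacrine markers averaged 8.90 (MP) to 11.93 (PaxCre) in AC and 6.00 to 6.06 in BC. In RGC they averaged 6.08 to 8.03, highest in J (8.67 and 7.38 on its arrays), and the part of amacrine RNA there was not tested. Of the 5, Pax6 averaged 9.72 to 11.08 in RGC. The 3 bipolar markers reached 11.38 and 11.51 in the BC subtypes and 8.35 in MP AC. Rod markers (7 genes) averaged 9.18 to 9.62 in BC, 7.32 to 9.56 in AC and 5.84 to 7.35 in RGC, and microglial markers (8 genes) averaged 7.70 to 10.49 in RGC, highest in J, against 5.62 to 7.36 in AC and 5.68 to 6.32 in BC. All 8 passed as higher in RGC than in AC, and their part in the differences of ganglion cells was not tested. The Thy1 level was 11.67 in MP BC and 9.98 in starburst cells, compared with 5.04 in ON BC. A lower level in a sorted population can mean fewer cells with the RNA or less RNA per cell, and these cannot be told apart.

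Most of these genes differed somewhere among the retinal neurons. Over the 13 subtypes, 54 of the 67 passed the F test with a range of at least 1 log2 unit between subtype means (80.6%, against 71.3% of all genes tested). Within the 5 amacrine subtypes 35 passed (52.2%, against 40.2% of all genes), and within the 6 ganglion cell subtypes 7 passed (10.4%, against 5.94%). The 13 that did not pass over all subtypes included Rab3a, Unc13a, Unc13d, Snap29, Snap91, Stx7 and Stx16. Replicate scatter was ordinary: the median over the 67 genes of the mean replicate SD was 0.22, and it was 0.21 over all genes.

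**Figure D1:**
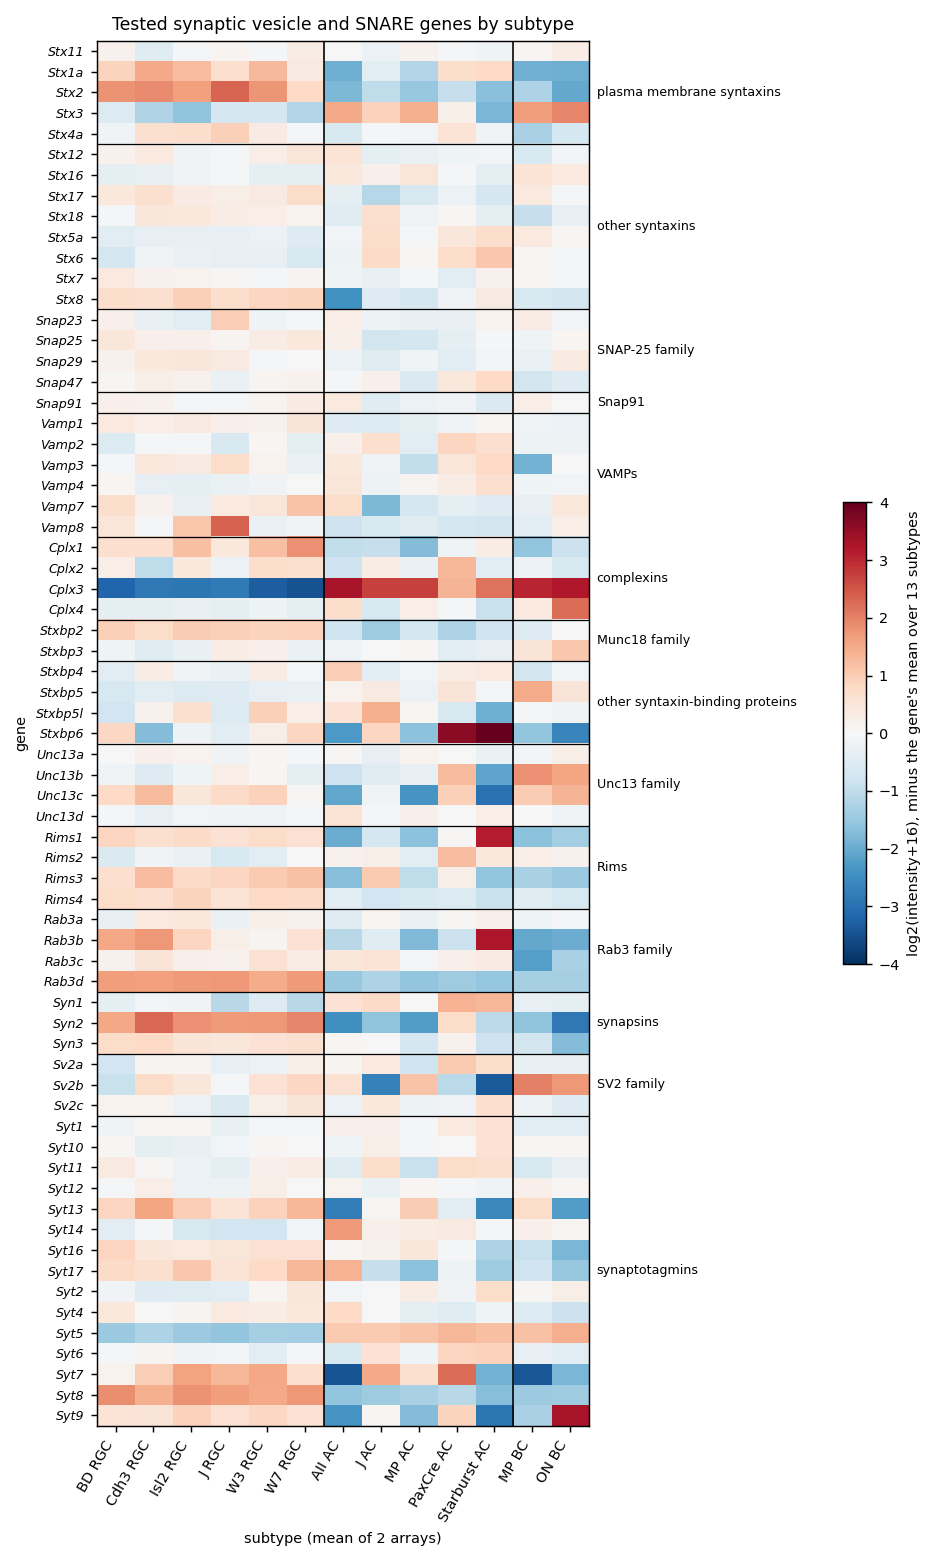
Subtype mean of each of the 67 tested genes (rows, grouped by role) in the 13 subtypes (columns, mean of 2 arrays), coloured by log2(intensity + 16) minus the gene's mean over subtypes. Cplx3 splits RGC (blue) from the other subtypes (red), Stxbp6 and Rims1 are reddest in starburst cells, and Snap25, Rab3a and Syt1 stay near white in every column.

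Ganglion cells were compared with amacrine cells to ask how output neurons differ from interneurons in this machinery. Of the 67 genes, 24 passed (35.8%), where 24.8% of all genes tested did. In ganglion cells 19 were higher (28.4%, background 15.8%) and 5 were lower (7.46%, background 9). The median difference over the 67 genes was 0.23 log2 units, compared with 0.00 over all genes. Bipolar against amacrine cells gave 15 genes (22.4%, background 10.4), of which 6 were higher in bipolar cells (8.96%, background 4.67) and 9 lower (13.4%, background 5.7). Bipolar against ganglion cells gave 28 (41.8%, background 29.6), with 7 higher in bipolar cells (10.4%, background 11.2) and 21 lower (31.3%, background 18.5). The 3 class comparisons share arrays pairwise and are therefore not independent of each other. P-values measure the spread between the 2 arrays of each subtype. When subtype means served as the units instead, 1 of the 15 bipolar against amacrine calls was left, that of Rab3c. With those units Stxbp6, Rab3b, Sv2b, Syt7 and Syt9 also lost their calls for RGC against AC. Vamp3, Stxbp6, Rims1, Sv2b and Syt13 lost theirs for BC against RGC.

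**Figure D2:**
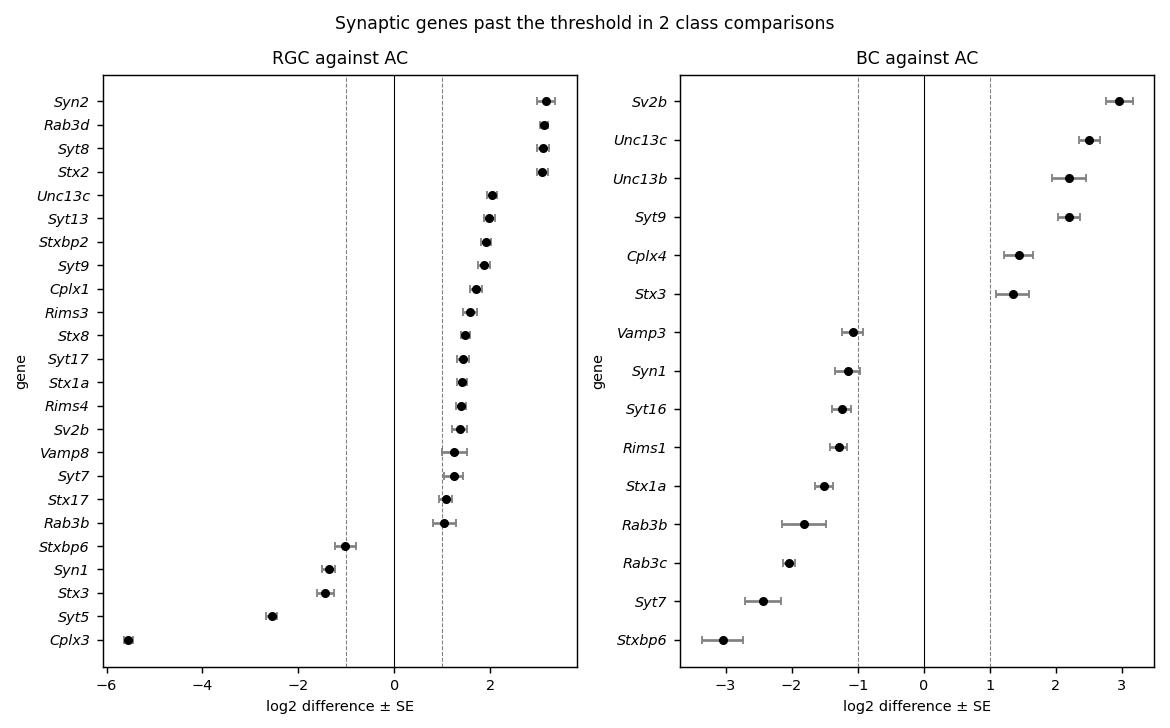
Log2 difference with its SE from limma for the genes that passed in RGC against AC (left, 24 genes) and in BC against AC (right, 15 genes), dashed lines marking 1 log2 unit. Cplx3 lies at -5.54 on the left, and Sv2b (2.96) and Stxbp6 (-3.05) mark the ends on the right.

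The complexins divided most sharply by class. Cplx3, a complexin of ribbon synapses that amacrine cells also use, ranged from 5.18 to 6.17 (median 5.56) over the 12 ganglion cell arrays and from 9.93 to 12.02 (median 11.37) over the 10 amacrine arrays. The bipolar arrays read 11.68 and 11.77 for MP BC and 11.96 and 11.81 for ON BC. No ganglion cell array came near any other array. Cplx3 has 1 probe set and its split follows the array sets, so class and array set cannot be told apart for it. The difference was -5.54 ± 0.09 (SE) for RGC against AC, a 46.6-fold lower level on this scale (adjusted p = 2.77e-18), and 6.21 ± 0.12 for BC against RGC (adjusted p = 8.38e-17). Bipolar and amacrine cells differed by 0.67 ± 0.13, short of the threshold of 1. Among amacrine cells, AII read highest (12.02 and 11.93), 1.05 ± 0.17 above the other subtypes, and PaxCre lowest (10.14 and 9.93), 1.38 ± 0.17 below them. The AII excess fell under 1 log2 unit on the arrays as deposited (0.91) and after a plain shift of medians (0.88).

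Cplx1, a complexin of conventional synapses, ran the other way. It lay between 10.75 and 12.39 (median 11.63) in ganglion cells, between 8.42 and 11.11 (median 9.69) in amacrine cells, and at 9.23, 8.69, 9.93 and 9.41 on the MP and ON bipolar arrays. One starburst array (11.11) lay inside the ganglion cell range, while every bipolar array lay below it. RGC exceeded AC by 1.70 ± 0.12 (adjusted p = 5.38e-10) and BC by 2.22 ± 0.16 (adjusted p = 1.12e-09). Cplx4, the other ribbon-synapse complexin, was 1.44 ± 0.22 higher in BC than in AC and 1.65 ± 0.22 higher than in RGC. Its arrays read 5.84 and 6.04 in MP BC, 7.96 and 7.57 in ON BC, 4.46 to 6.59 in AC and 4.68 to 5.62 in RGC, so ON bipolar cells stood above all others and MP BC overlapped the amacrine range. Cplx2 did not pass between classes, with differences of 0.10 for RGC against AC and -0.57 for BC against RGC.

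The promoter of Cplx3 is shown because that gene separates the classes most. It is given on the gene's own strand with 250 bases before and 50 after the annotated start (RefSeq, GRCm38.p6, chr9:57606232-57606531, minus strand). Capitals mark CAGCTG, an E-box of the kind that basic helix-loop-helix factors bind, 131 bases before the start.
Cplx3: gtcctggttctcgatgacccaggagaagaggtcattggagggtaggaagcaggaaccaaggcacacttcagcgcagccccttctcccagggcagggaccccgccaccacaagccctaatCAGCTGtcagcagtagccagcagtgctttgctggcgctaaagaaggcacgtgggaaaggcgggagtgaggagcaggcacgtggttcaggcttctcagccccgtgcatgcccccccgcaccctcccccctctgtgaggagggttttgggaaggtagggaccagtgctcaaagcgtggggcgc

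The plasma membrane syntaxins, which anchor the complex on the target side, showed a reciprocal pattern for Stx1a and Stx3. Stx1a, the syntaxin of conventional synapses, lay at 9.07 to 10.55 (median 10.01) in ganglion cells. Amacrine arrays ran from 6.71 to 9.86 (median 8.46), and the bipolar arrays read 7.07, 6.92, 7.09 and 6.86. The bipolar values fell below all ganglion cell values and at the bottom of the amacrine range, beside AII. RGC exceeded AC by 1.41 ± 0.10 (adjusted p = 2.7e-10), and BC lay 1.51 ± 0.13 below AC (adjusted p = 6.65e-08) and 2.93 ± 0.13 below RGC, 7.60-fold. Over C57BL/6 subtypes alone, the excess of RGC over AC in Stx1a was 0.54. With the next brightest probe set of Stx1a, BC lay 0.68 below AC.

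Stx3, the ribbon-synapse syntaxin, read 11.40 and 11.54 in MP BC and 11.67 and 11.85 in ON BC. It ranged from 7.95 to 11.51 (median 10.73) in amacrine cells and from 8.06 to 9.98 (median 8.66) in ganglion cells. All bipolar arrays lay above all ganglion cell arrays and overlapped the top of the amacrine range, where MP AC and AII lay, while starburst cells (7.95 and 8.05) lay at the foot of the ganglion cell range. BC exceeded RGC by 2.78 ± 0.24 (adjusted p = 1.14e-08) and AC by 1.34 ± 0.25, and RGC lay 1.44 ± 0.18 below AC (adjusted p = 1.19e-06). That last difference was -0.91 on the arrays as deposited, -0.71 over C57BL/6 subtypes and -0.20 with the next brightest Stx3 probe set, none of which passed. Rod photoreceptors are also known to use Stx3, and rod markers averaged 9.18 to 9.62 in BC and MP AC and 8.29 in AII, which had the highest Stx3 of the amacrine subtypes. Their part in the level of Stx3 was not tested.

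Stx2, a relative that acts outside synapses in many tissues, was 3.09 ± 0.12 higher in RGC than in AC and 3.35 ± 0.16 higher than in BC. It read 7.18 to 9.31 in RGC and 4.56 to 5.95 in all other arrays. Stx2 also has 1 probe set and a split that follows the array sets. Stx4a was 1.41 ± 0.25 lower in BC than in RGC, and Stx11, a syntaxin of immune cells, differed by at most 0.25 in any class comparison. The promoters of Stx1a and Stx3 are shown because the genes ran in opposite directions (RefSeq, GRCm38.p6, on the gene's strand as above). Stx1a lies at chr5:135023232-135023531 on the plus strand and Stx3 at chr19:11819354-11819653 on the minus strand. Capitals mark GGGCGG (GC box, as Sp-family factors bind) and CAGCTG in Stx1a, and TAATCC, the core that Otx2 and Crx bind, in Stx3, where it begins 30 bases after the start.
Stx1a: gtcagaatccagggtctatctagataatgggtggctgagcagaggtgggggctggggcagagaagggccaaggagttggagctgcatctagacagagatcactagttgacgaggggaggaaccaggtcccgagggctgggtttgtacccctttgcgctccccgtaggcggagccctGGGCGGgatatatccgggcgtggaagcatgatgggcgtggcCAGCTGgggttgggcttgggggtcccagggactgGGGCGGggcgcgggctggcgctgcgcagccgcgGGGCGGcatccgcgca
Stx3: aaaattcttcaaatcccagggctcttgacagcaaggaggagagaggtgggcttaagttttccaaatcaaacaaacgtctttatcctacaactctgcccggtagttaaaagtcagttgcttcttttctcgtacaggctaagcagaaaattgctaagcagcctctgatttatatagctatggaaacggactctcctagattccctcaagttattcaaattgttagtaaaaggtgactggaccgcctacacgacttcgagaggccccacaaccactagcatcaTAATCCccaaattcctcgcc

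Among vesicle proteins, Sv2b followed Stx3 in being highest in bipolar cells. Sv2 proteins are membrane glycoproteins of all synaptic vesicles, and Sv2b is the form known from ribbon synapses. The bipolar arrays read 11.74 and 11.89 in MP BC and 11.80 and 11.23 in ON BC. Ganglion cells ranged from 8.61 to 10.83 (median 10.26) and amacrine cells from 6.44 to 10.98 (median 8.70), and every bipolar array lay above both ranges. BC exceeded AC by 2.96 ± 0.21 (adjusted p = 2.7e-09) and RGC by 1.60 ± 0.20, and RGC exceeded AC by 1.36 ± 0.15. The next brightest Sv2b probe set gave 1.84 for BC against AC and 0.10 for BC against RGC, which did not pass. Within amacrine cells Sv2b was high in MP AC (10.86 and 10.98) and AII (10.54 and 10.25) and low in starburst (6.45 and 6.44) and J cells (7.70 and 6.44). Rod markers were also high in MP AC and low in starburst cells, and their part was not tested. Sv2a and Sv2c did not pass in any class comparison.

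A promoter of Sv2b, 1 of 4 listed (RefSeq, GRCm38.p6, chr7:75309213-75309512, minus strand), is shown beside that of Stx3 because both hold TAATCC. Here it begins 150 bases before the start, and GGGCGG is also in capitals.
Sv2b: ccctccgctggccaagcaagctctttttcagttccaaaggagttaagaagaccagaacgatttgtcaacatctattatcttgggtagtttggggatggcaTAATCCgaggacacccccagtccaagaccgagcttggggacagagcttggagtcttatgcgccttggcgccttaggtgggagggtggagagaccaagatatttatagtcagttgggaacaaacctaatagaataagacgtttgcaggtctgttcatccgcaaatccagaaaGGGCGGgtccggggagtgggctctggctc

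Over all promoters of 300 bases in the table, both strands searched, 7.06% of 32851 held TAATCC, and 4 of the 71 promoters listed for 55 of these genes did (5.63%, from Rims3, Stx3 and Sv2b). CAGCTG, which reads the same on both strands, was in 29.6% of the 71 and 16.3% of all. GGGCGG was in 66.2% and 35.7%, and none of these motifs contains another. TTCAGCACC, the left part of the RE1 element that the neuronal repressor REST binds, was in 2.82% (Syn1 and Unc13a) and 0.371%. A match is a description of letters, and binding was not measured.

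**Figure D3:**
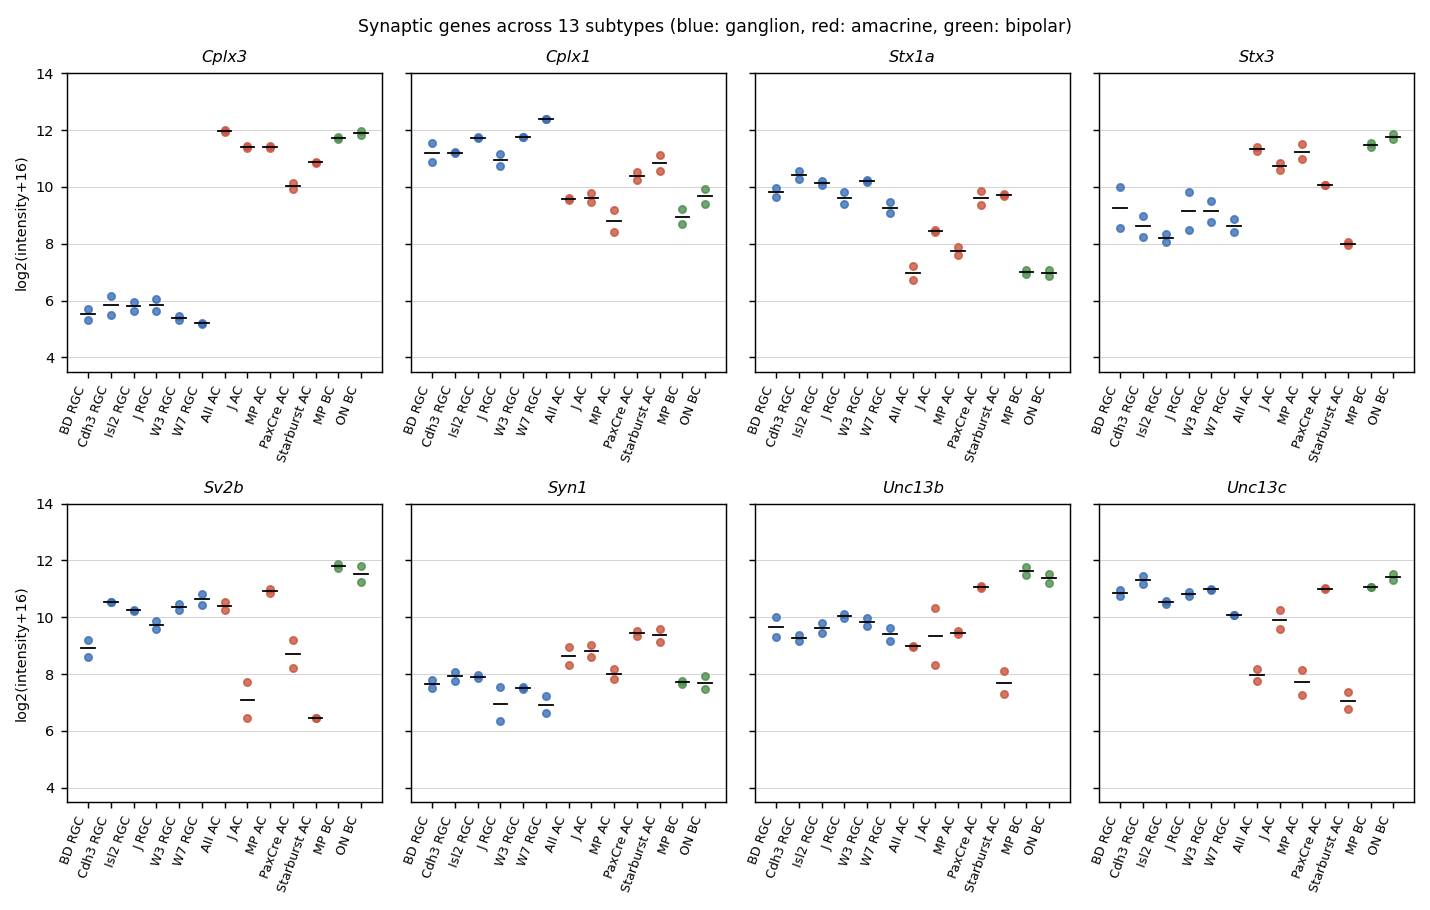
Log2(intensity + 16) of 8 genes (panels) on each array (points) of the 13 subtypes, black bars marking subtype means and colours the class. Cplx3 separates RGC from the rest, Stx3, Sv2b and Unc13b are highest in BC, and Stx1a and Cplx1 are highest in RGC.

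Unc13 proteins prime docked vesicles for release. Unc13b was highest in bipolar cells, at 11.50 and 11.76 in MP BC and 11.53 and 11.21 in ON BC, above all ganglion cell arrays (9.15 to 10.11) and all amacrine arrays (7.28 to 11.10). PaxCre cells (11.10 and 11.03) came within 0.2 of the bipolar arrays. BC exceeded AC by 2.20 ± 0.25 (adjusted p = 1.91e-06) and RGC by 1.86 ± 0.25. Unc13c was high in both glutamatergic classes, ranging from 10.08 to 11.44 in RGC and reading 11.05, 11.07, 11.31 and 11.51 in BC, while amacrine arrays spread from 6.76 to 11.01. The PaxCre arrays and 1 J array overlapped the ganglion cell range. It was 2.03 ± 0.11 higher in RGC and 2.51 ± 0.16 higher in BC than in AC, and the former was 0.97 with the median over its probe sets. Unc13a, the form of most brain synapses, and Unc13d, which acts in immune granules, differed by at most 0.34 in these comparisons and did not pass. The 1 probe set of Unc13a read 5.88 to 6.80 on all arrays, near the median of all values (6.14). Even expression and a dim probe set cannot be told apart there.

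Rim proteins organize the active zone around calcium channels. Rims3 and Rims4, short forms, were higher in RGC than in AC by 1.57 ± 0.15 and 1.39 ± 0.10, and higher than in BC by 2.36 ± 0.20 and 1.29 ± 0.14. The median over the probe sets of Rims3 gave 0.64 for RGC against AC. For Rims4 all ganglion cell arrays (7.70 to 8.42) lay above all others (6.21 to 6.88), while Rims3 in J amacrine cells (9.24 and 8.83) lay inside the ganglion cell range (8.43 to 9.38). Rims1, a large scaffold form, was steady in ganglion cells (10.47 to 10.89) and read 8.39, 8.39, 8.76 and 8.48 in BC. Its amacrine values ran from 7.86 to 13.20, wider than any of its class differences. RGC and AC differed by 0.93 ± 0.09, just short of the threshold. BC lay 2.21 ± 0.12 below RGC (adjusted p = 2.57e-11) and 1.29 ± 0.13 below AC. Rims2 passed in none of the class comparisons.

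Rab3 proteins are vesicle-bound GTPases that recruit Rim. Rab3a differed by at most 0.22 ± 0.18 between classes and passed in none of the class comparisons. Rab3c read 9.21 and 9.18 in MP BC and 9.97 and 10.24 in ON BC, below every amacrine array (11.30 to 12.05) and every ganglion cell array (11.52 to 12.06), which overlapped each other. It was 2.04 ± 0.09 lower in BC than in AC (adjusted p = 1.2e-11) and 2.07 ± 0.09 lower than in RGC, although the next brightest probe set gave -0.36 for the latter. Rab3b sat at the floor in bipolar cells (4.09 to 4.27) and between 5.88 and 7.98 in ganglion cells, and BC against RGC gave -2.85 ± 0.32. AC exceeded BC by 1.81 ± 0.33 through that floor and the starburst arrays (9.22 and 9.53). Its excess in RGC over AC (1.04 ± 0.24) was at the threshold, with the starburst arrays above all others. It fell to 0.91 without AII AC replicate 2, 0.79 without J AC replicate 1, 0.92 without PaxCre AC replicate 1, 0.97 without W3 RGC replicate 2, 0.996 without W7 RGC replicate 1 and 0.05 over C57BL/6 subtypes, none of which passed.

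Synapsins tether vesicles in the reserve pool. Syn2 was 3.16 ± 0.19 higher in RGC than in AC (adjusted p = 3.59e-11), and BC against RGC gave -4.08 ± 0.25. Its arrays ran from 9.24 to 10.27 in ganglion cells and from 5.08 to 9.02 in amacrine cells, and read 6.05, 6.55, 5.28 and 4.82 in bipolar cells. The ganglion cell arrays lay above all others, while amacrine and bipolar arrays overlapped. The size depended on the probe set, since the next brightest of Syn2 gave 0.41 for RGC against AC and -0.22 for BC against RGC, and neither passed. Syn3 was 1.86 ± 0.13 higher in RGC than in BC and 0.88 ± 0.10 higher than in AC, the latter short of the threshold. Syn1 ran the opposite way, lying 1.37 ± 0.14 lower in RGC and 1.15 ± 0.19 lower in BC than in AC. Ganglion cell arrays read 6.36 to 8.07, bipolar arrays 7.46 to 7.92 and amacrine arrays 7.84 to 9.59, where 1 MP AC array (7.84) overlapped the other classes. On the arrays as deposited the Syn1 difference for RGC against AC was -0.86.

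Of the 67 genes tested 15 were synaptotagmins, and 6 of these passed between ganglion and amacrine cells. That share was near the 35.8% of all 67 genes, where 24.8% of all genes tested passed. Syt1, the main fast calcium sensor, lay between 11.43 and 12.75 on all 26 arrays and passed in none of the class comparisons. Syt7, a slow high-affinity sensor, ranged from 8.33 to 10.84 (median 10.42) in ganglion cells and from 5.68 to 11.38 (median 9.78) in amacrine cells, and read 5.98, 5.45, 7.61 and 7.03 in the bipolar arrays. The bipolar arrays lay below all ganglion cell arrays, by 3.67 ± 0.27 on average (adjusted p = 1.06e-09), and 2.43 ± 0.28 below AC. RGC exceeded AC by 1.24 ± 0.20, which was 0.44 over C57BL/6 subtypes. Syt9, another fast sensor, was 1.86 ± 0.12 higher in RGC and 2.20 ± 0.17 higher in BC than in AC, and Syt13 and Syt17, which do not bind calcium through the usual sites, were 1.98 ± 0.12 and 1.42 ± 0.12 higher in RGC than in AC. The Syt9 excess of BC rested on ON BC and was 4.50 without both MP BC arrays. Syt16 was 1.24 ± 0.15 lower in BC than in AC and 1.93 ± 0.15 lower than in RGC.

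The remaining families held fewer differences. Snap25, the neuronal plasma membrane SNARE, lay between 11.13 and 12.62 on every array, and none of the 4 SNAP-25 family genes passed a class comparison. That holds for the brightest probe sets, since the second ones of Snap29 (7.76 to 9.25 in RGC, 4.89 to 6.02 elsewhere) and Snap23 (4.70 to 5.34 and 6.77 to 7.41) split ganglion cells from all others, in opposite directions. Vamp2, the synaptic vesicle SNARE, was 0.67 ± 0.09 below AC in RGC and 0.62 ± 0.13 below AC in BC, under the threshold. Vamp3, its relative in recycling membranes, was 1.08 ± 0.16 lower in BC than in AC and 1.19 ± 0.16 lower than in RGC. Both rested on MP BC (7.19 and 7.49, against 9.40 and 9.05 in ON BC), and without those arrays the differences were -0.14 and -0.24. Without ON BC replicate 2 alone, Vamp3 in BC against AC was -0.99. Vamp8, a SNARE of secretory and endosomal granules, was 1.25 ± 0.25 higher in RGC than in AC. The values spread from 4.77 to 8.87 in RGC, and the highest were the J arrays (8.42 and 8.87), whose microglial markers were also the highest. The difference was 0.89 without both J RGC arrays, and the part of microglial RNA was not tested.

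Among syntaxins of inner membranes, which serve endosomes and the Golgi, Stx8 was 1.47 ± 0.09 higher in RGC than in AC and 1.47 ± 0.13 higher than in BC, and Stx17, which acts in autophagy, was 1.07 ± 0.13 higher in RGC than in AC. The next brightest Stx8 probe set gave 0.002 for RGC against AC and -0.08 for BC against RGC. The Stx17 call was lost without MP AC replicate 2 (0.99) and without AII AC replicate 1 (just under 1). Stxbp5, or tomosyn, which holds syntaxin away from fusion, was 1.45 ± 0.13 higher in BC than in RGC. It was 0.94 on the arrays as deposited and 0.65 with its next brightest probe set. Stxbp3 did not pass in any of these comparisons, while Stxbp2 did so with probe sets that disagreed.

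Stxbp6, or amisyn, carries a Vamp-like helix that can occupy syntaxin in place of a vesicle SNARE, and it varied more among amacrine cells than between classes. Amacrine arrays ran from 4.40 to 11.24 (median 7.79), ganglion cell arrays from 4.45 to 8.08 (median 7.09), and bipolar arrays read 6.14, 4.61, 4.19 and 4.42. Starburst and PaxCre cells were above every ganglion cell array, and AII and MP AC were near the bipolar arrays. BC lay 3.05 ± 0.31 below AC (adjusted p = 4.85e-07) and 2.03 ± 0.30 below RGC, the latter -0.76 and not past the threshold with the next brightest probe set. RGC against AC gave -1.02 ± 0.23, which was -0.62 on the arrays as deposited. That call was also lost, at -0.899 to -0.998, without any one of Starburst AC replicate 2, AII AC replicate 1, J AC replicate 1, PaxCre AC replicate 2, Cdh3 RGC replicate 2, Isl2 RGC replicate 2, J RGC replicate 2, W3 RGC replicate 2 or W7 RGC replicate 1. The promoter of Stxbp6 (RefSeq, GRCm38.p6, chr12:45074434-45074733, minus strand) is shown because the gene had the widest spread among amacrine cells, and none of the searched motifs is in it.
Stxbp6: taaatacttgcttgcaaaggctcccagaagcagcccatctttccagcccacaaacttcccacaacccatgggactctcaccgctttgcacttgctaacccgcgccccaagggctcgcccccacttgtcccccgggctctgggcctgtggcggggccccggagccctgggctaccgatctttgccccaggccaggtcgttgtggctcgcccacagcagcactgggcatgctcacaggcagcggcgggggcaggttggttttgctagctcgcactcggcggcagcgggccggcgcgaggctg

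Amacrine cells use GABA or glycine, and the comparison of transmitters set starburst and PaxCre against AII and J, with the unlabelled MP cells left out. The transmitter of starburst and AII cells comes from general knowledge. Gad1, the GABA-synthesizing enzyme, averaged 12.39 in starburst, 12.30 in PaxCre, 10.82 in J and 5.75 in AII cells, so J cells, labelled glycinergic, also held much of the GABAergic marker. Slc6a9, the glycine transporter, averaged 11.69 in J, 11.75 in AII, 8.29 in PaxCre and 6.02 in starburst cells. Of the 67 genes, 13 passed (19.4%, background 9), of which 8 were higher in GABAergic cells (11.9%, background 5.74) and 5 lower (7.46%, background 3.26). The largest was Stxbp6, at 11.03, 11.24, 10.45 and 10.66 in starburst and PaxCre cells against 4.89, 4.40, 8.33 and 7.25 in AII and J cells. The groups were fully apart, and the difference was 4.62 ± 0.37 (24.7-fold, adjusted p = 5.74e-08). Rims1 was 2.92 ± 0.15 higher, at 13.10, 13.20, 9.95 and 10.17 against 7.86, 8.22, 9.63 and 9.02, where most of the size came from starburst cells. Stx1a was 1.95 ± 0.16 higher, at 9.76, 9.67, 9.35 and 9.86 against 7.22, 6.71, 8.50 and 8.42, again without overlap. Rab3b (1.99 ± 0.40), Syn2 (1.88 ± 0.31) and Stx8 (1.57 ± 0.16) were also higher, with Rab3b raised in starburst and Syn2 in PaxCre cells. Of these, Stx8 and Syn2 reversed to -0.04 and -0.19 with the next brightest probe set.

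The genes lower in GABAergic cells were Stxbp5l, a tomosyn relative (-2.29 ± 0.30), Stx3 (-2.002 ± 0.297), Cplx3 (-1.24 ± 0.15), Sv2b (-1.16 ± 0.25) and Syt17 (-1.06 ± 0.21). Glycinergic and GABAergic arrays overlapped for Sv2b and Syt17 and were apart for the other 3. The 2 overlapping calls were lost without single arrays: Sv2b read -0.85 without J AC replicate 1 and -0.92 without PaxCre AC replicate 2, and Syt17 read -0.93 without Starburst AC replicate 1 and -0.92 without AII AC replicate 1. Over C57BL/6 subtypes, which leaves J as the only glycinergic subtype, Sv2b, Syt17 and Syt7 turned to 0.50, 0.11 and -1.37. In that setting Cplx3 (-0.97), Stx8 (0.62) and Cplx1 (0.98) no longer passed either. Cplx1 (1.01 ± 0.20) and Syt7 (1.13 ± 0.33) were at the threshold. Cplx1 was 0.87 without Starburst AC replicate 2, 0.99 without AII AC replicate 1, 0.93 without J AC replicate 1 and 0.94 without PaxCre AC replicate 2. For Syt7 the adjusted p was 0.0612 without Starburst AC replicate 1 and 0.0584 without J AC replicate 2.

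**Figure D4:**
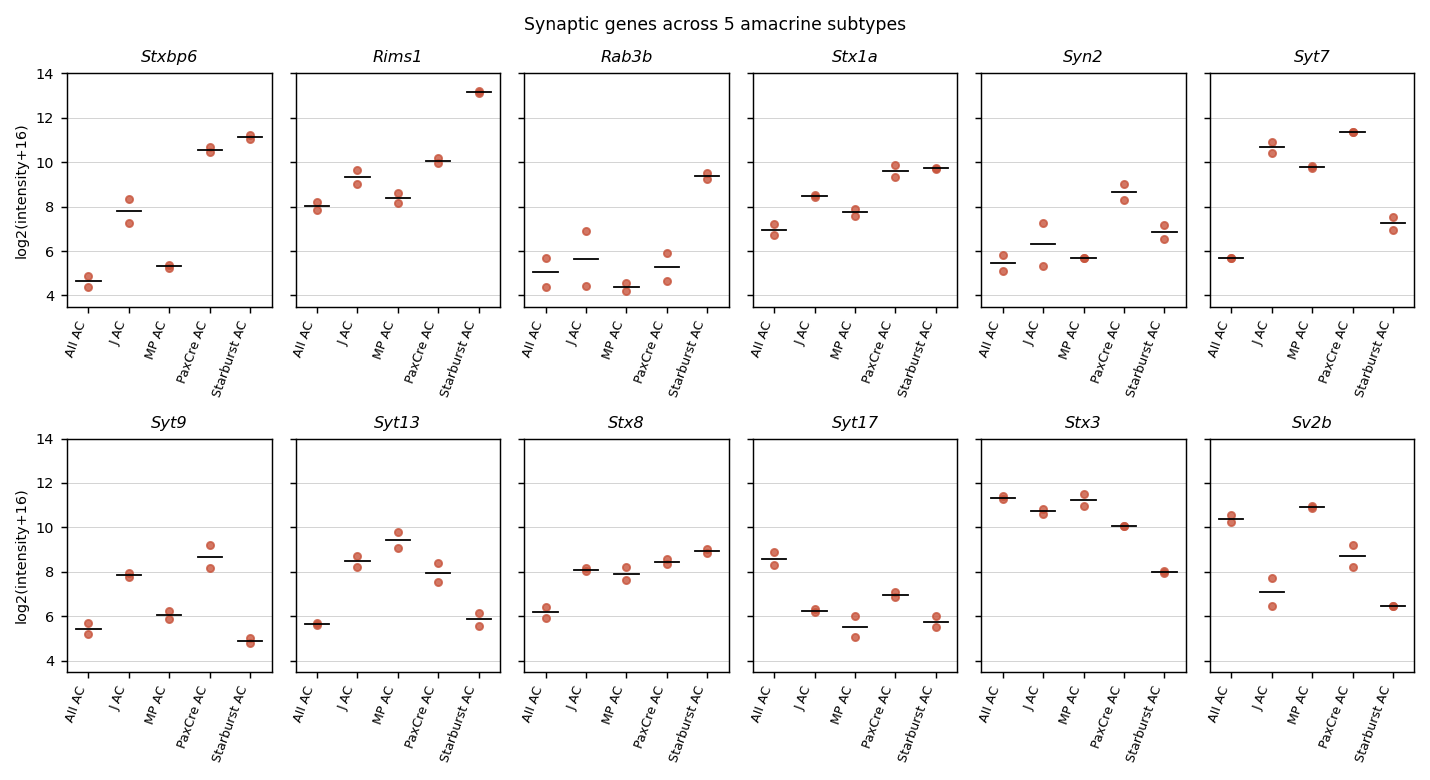
Log2(intensity + 16) of 12 genes (panels) on the 2 arrays (points) of each amacrine subtype, black bars marking the mean. Starburst cells are highest for Rims1, Rab3b and Stxbp6 and lowest for Stx3 and Syt9, and AII cells are lowest for Syt7, Stx8, Stx1a and Stxbp6.

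Each amacrine subtype was then set against the mean of the other 4. AII and MP AC differed from the rest in strain too, and strain and subtype cannot be told apart for them. Starburst cells, the cholinergic and GABAergic cells of direction selectivity, had 17 of 67 genes past the threshold (25.4%, background 10.9), 6 higher (8.96%, background 5.32) and 11 lower (16.4%, background 5.61). Rab3b (9.22 and 9.53, against 4.21 to 6.89 in other amacrine arrays) was 4.28 ± 0.44 higher, Rims1 4.20 ± 0.17 higher and Stxbp6 4.05 ± 0.42 higher, and for all 3 the starburst arrays were the top ones. Stx1a (1.52), Stx8 (1.28) and Cplx1 (1.25) were higher by less, and Cplx1 was 0.97 without Starburst AC replicate 2. Stx1a gave 0.83 and Stx8 0.21 with the next brightest probe set, and 0.68 and 0.67 over C57BL/6 subtypes, and none of these passed. Stx3 (-2.84), Sv2b (-2.83), Stxbp5l (-2.31), Syt7 (-2.13), Syt9 (-2.11) and Unc13c (-2.08) were the lowest, and Syt13, Unc13b, Syt16, Rims3 and Syt17 made up the 11. With the next brightest probe set Sv2b gave -0.095 and Syt13 -0.75, and neither passed. Rims3 and Syt17 lost the call without Starburst AC replicate 1 (-0.67 and -0.84), and Syt17 also without MP AC replicate 1 (-0.98).

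AII cells, the glycinergic relay of the rod pathway, had 19 genes past the threshold (28.4%, background 16.2), 8 higher (11.9%, background 5.73) and 11 lower (16.4%, background 10.5). Syt7 was 5.68 on both AII arrays, compared with 6.95 to 11.38 on the other amacrine arrays, a difference of -4.09 ± 0.37 (adjusted p = 2.01e-07). Stxbp6 was 4.05 ± 0.42 lower, and Syt13 (-2.27), Rims1 (-2.19), Stx8 (-2.17) and Stx1a (-1.92) followed. With the next brightest probe set Stx8 turned to 0.83, and Syt13 (-0.77) and Stx1a (-0.79) no longer passed. Syt17 (8.88 and 8.30, against 5.08 to 7.08) was 2.46 ± 0.23 higher, above every other amacrine array, followed by Sv2b (2.11), Vamp7, a SNARE of late endosomes (1.61), Syt14 (1.53), Stx3 (1.33) and Syt4 (1.07). Sv2b gave 0.22 and Stx3 0.92 with the next brightest probe set, and Syt4 0.93 on the arrays as deposited, none of which passed. Among calls that rested on one array, Stx3 had an adjusted p of 0.0691 without AII AC replicate 2, Cplx2 (-1.05) was -0.98 without Starburst AC replicate 2 and -0.94 without AII AC replicate 2, and Cplx4 (1.05) was 0.72 without AII AC replicate 2 and 0.87 without MP AC replicate 2. Syn2 (-1.42) had an adjusted p of 0.108 without AII AC replicate 1, and Syt6 (-1.18) was -0.997 without J AC replicate 1.

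PaxCre cells had 11 genes past the threshold (16.4%, background 6.54), of which 10 were higher (14.9%, background 4.97). They were Stxbp6 (3.33), Syt7 (3.02), Unc13c (2.84), Syt9 (2.61), Syn2 (2.58), Unc13b (2.20), Cplx2 (1.62), Stx1a (1.38), Rims2 (1.14) and Rims3 (1.04). PaxCre arrays were above all other amacrine arrays for Syt7, Unc13c, Syt9, Syn2, Unc13b, Cplx2 and Rims2. Cplx3 was the gene that was lower (1.49%, background 1.56). Syn2 turned to -0.20 with the next brightest probe set. Over C57BL/6 subtypes Stxbp6 (1.09), Stx1a (0.51), Rims2 (0.90) and Rims3 (0.50) did not pass. On the full set, Rims2 had adjusted p-values of 0.0595 and 0.0717 without PaxCre AC replicate 1 or 2. Rims3 lost its call at 0.91 without Starburst AC replicate 1, 0.99 without AII AC replicate 1, 0.99 without J AC replicate 2, and at adjusted p-values of 0.104 and 0.204 without PaxCre AC replicate 1 or 2.

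J amacrine cells had 8 genes past the threshold (11.9%, background 6.06), with 6 higher (8.96%, background 2.8): Syt7 (2.16), Rims3 (2.06), Stxbp5l (1.90), Syt9 (1.60), Unc13c (1.48) and Syt13 (1.24). Rims3 and Stxbp5l were above all other amacrine arrays. Sv2b (-2.04) and Vamp7 (-1.59) were lower. Vamp7 was -0.96 without J AC replicate 1, and Syt13 was 0.98 without J AC replicate 2. Over C57BL/6 subtypes Sv2b gave -0.50, Unc13c 0.89 and Syt7 1.37, and with the next brightest probe set Sv2b gave -0.68 and Syt13 0.57, none of which passed.

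MP amacrine cells had 16 genes past the threshold (23.9%, background 10.4), 4 higher (5.97%, background 5.13) and 12 lower (17.9%, background 5.26). Sv2b (2.76 ± 0.27) and Syt13 (2.45 ± 0.21) were above all other amacrine arrays, and Stx3 (1.21) and Syt7 (1.04) were also higher. Sv2b gave 0.89 and Syt13 0.73 with the next brightest probe set, and neither passed. The lower genes were led by Stxbp6 (-3.22), Rab3b (-1.95), Rims1 (-1.77), Vamp3 (-1.36), Syt17 (-1.36) and Sv2a (-1.35), with Cplx1, Syt11, Unc13c, Syn2, Syn1 and Vamp2 making up the rest. In MP AC the amacrine marker list was lowest of the 5 subtypes and the rod, bipolar and ganglion cell lists were highest of the 5 (9.56, 8.35 and 7.15), as were the microglia, Muller glia and cone lists (7.36, 7.67 and 6.56), and their part in these differences was not tested. Vamp2, Vamp3 and Syn2 turned to 0.13, 0.22 and 0.55 with the next brightest probe set, and Syt7 to -0.36.

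Many of the MP AC calls depended on single arrays. Without MP AC replicate 2, Stx3 was 0.93, Cplx1 was -0.92, Unc13c was -0.84, Syt17 was -0.90, Syn1 was -0.87, and Rab3b and Syn2 had adjusted p-values of 0.0662 and 0.137. Without MP AC replicate 1, Vamp2 was -0.998, and Syt11 and Syn2 had adjusted p-values of 0.0941 and 0.133. Vamp2 was also -0.99 without AII AC replicate 1, and Syn2 was -0.89 without J AC replicate 1. Syn1 was -0.98 without Starburst AC replicate 2, -0.96 without AII AC replicate 1 and -0.99 without J AC replicate 2. Syt7 (adjusted p = 0.0469) lost its call without either array of MP AC, MP BC, AII AC, Isl2 RGC, PaxCre AC or W3 RGC, without Starburst AC replicate 2 and without J AC replicate 2, at 0.97 to 1.11.

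The bipolar subtypes differed in 6 of 67 genes (8.96%, background 5.03), with 4 higher in ON BC (5.97%, background 2.59) and 2 lower (2.99%, background 2.44). Syt9 read 11.17 and 11.02 in ON BC against 6.47 and 6.50 in MP BC, and the ON arrays were above all other arrays of the study. The difference was 4.61 ± 0.28 (24.4-fold, adjusted p = 4.96e-09). Syt13 went the other way, at 6.05 and 6.34 in ON BC against 9.03 and 9.29 in MP BC (-2.97 ± 0.27, adjusted p = 6.15e-07). With the next brightest Syt13 probe set it was -0.77. ON bipolar markers averaged 10.45 in ON BC and 6.73 in MP BC.

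Vamp3 was 1.88 ± 0.27 higher (0.15 with its next brightest probe set), Cplx4 1.82 ± 0.38 higher and Syn3 1.01 ± 0.23 lower in ON BC. The adjusted p of Cplx4 was 0.0529 without MP BC replicate 1 and 0.0707 without ON BC replicate 1. Syn3 was -0.90 without MP BC replicate 1, -0.92 without ON BC replicate 2 and 0.11 with its next brightest probe set. Syt7 (1.60 ± 0.47, adjusted p = 0.0486) lost its call without either array of MP BC, ON BC, Starburst AC, MP AC, AII AC, PaxCre AC, Isl2 RGC or W3 RGC, at 1.32 to 1.90. Stx3, Sv2b, Unc13b and Cplx3, which were high in both subtypes, differed by 0.29, -0.30, -0.26 and 0.16 between them, with SEs of 0.21 to 0.42. Strain differed between these subtypes as well as line and gate, and these cannot be told apart.

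The ganglion cell subtypes were close to each other. Set against the mean of the other 5, Isl2 and W3 cells had 0 genes past the threshold in limma, with 3 and 6 genes at an unadjusted p under 0.05. Of all genes tested, 0.222% passed for Isl2 (0.194% higher, 0.0287% lower) and 0.803% for W3 (0.344% higher, 0.459% lower). BD had 1 gene, lower (1.49%, background 0.495, with 0.315 higher and 0.179 lower), and Cdh3 had 2, both lower (2.99%, background 2.09, with 1.26 higher and 0.824 lower). J had 1, higher (1.49%, background 2.04, with 1.63 higher and 0.416 lower), and W7 had 1 higher and 1 lower (2.99%, background 1.37, with 0.681 higher and 0.688 lower). Cdh3 cells read 8.67 and 8.61 for Cplx2, below all other ganglion cell arrays (9.22 to 10.51), by 1.38 ± 0.20 (adjusted p = 0.00031). Cdh3 was the only ganglion cell subtype not labelled C57BL/6 alone, so strain and subtype cannot be told apart for this Cplx2 call. That call held without each array in turn.

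The other 5 calls did not. Stxbp6 in Cdh3 cells (-1.99 ± 0.41) had an adjusted p of 0.421 without Cdh3 RGC replicate 2, and Sv2b in BD cells (-1.39 ± 0.27) one of 0.965 without BD RGC replicate 2. Vamp8 in J cells (2.14 ± 0.45) had adjusted p-values of 0.0573 and 0.271 without J RGC replicate 1 or 2. In W7 cells Cplx1 was 1.02 ± 0.22 higher and Stx2 1.10 ± 0.21 lower. Stx2 was -0.77 without W7 RGC replicate 2, and Cplx1 was 0.95 without BD RGC replicate 2, 0.97 without J RGC replicate 2, and had adjusted p-values of 0.137 and 0.252 without W7 RGC replicate 1 or 2. The 7 genes of the F test over ganglion cell subtypes were Cplx1, Cplx2, Stx1a, Stx2, Stxbp6, Sv2b and Vamp8. Their number rose without BD RGC replicate 1 and fell without W7 RGC replicate 2, and the share over all genes moved the same way.

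A few genes had only 2 levels, one in ganglion cells and one in everything else. Rab3d lay at 7.76 to 8.24 in RGC and 4.68 to 5.42 elsewhere, Syt8 at 7.13 to 7.90 and 4.09 to 5.24, and Syt5, reversed, at 4.09 to 4.88 and 6.88 to 7.45. Rab3d was 3.12 ± 0.09 higher in RGC than in AC, Syt8 3.10 ± 0.13 higher and Syt5 2.56 ± 0.11 lower, and BC differed from RGC by -2.98 ± 0.12, -3.11 ± 0.18 and 2.71 ± 0.15. At levels so near the floor the size depends on the pseudocount: for RGC against AC, Syt8 gave 5.25 with 1 and 1.70 with 64, and Syt5 gave -4.18 and -1.35. No amacrine or bipolar comparison passed for these 3 genes. The same split along the array sets was seen for Opn1mw, a cone opsin that no neuron sorted here is known to make, at 6.86 to 7.22 in RGC and 4.09 to 5.53 elsewhere, and for Pecam1, an endothelial gene, at 4.80 to 5.47 and 4.09 to 4.30. Other markers of those lists did not share it. Among cone markers Gnat2 went the opposite way (subtype means of 5.13 to 5.44 in RGC and 7.35 to 9.47 elsewhere), and Arr3 and Opn1sw overlapped. Among vascular markers Rgs5 averaged 8.55 to 12.57 in RGC and 5.01 to 8.81 elsewhere, and Cldn5 and Kdr overlapped. The vascular list averaged 6.48 to 7.64 in RGC, 5.53 to 6.48 in AC and 5.25 to 5.33 in BC, and its part was not tested. Class and array set cannot be told apart for Rab3d, Syt8, Syt5, Opn1mw or Pecam1.

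Probe sets of one gene also disagreed along that line. The brightest of Stxbp2, a Munc18 protein of immune and epithelial cells, lay at 8.09 to 8.61 in RGC and 5.88 to 7.62 elsewhere (1.91 ± 0.10 for RGC against AC), and the second at 4.09 to 5.03 and 8.05 to 8.86 (-3.86 ± 0.12). Stxbp2 is counted among the genes that passed by its brightest probe set, but has no single direction. Of Rab3d, the 3 brightest probe sets had mean levels of 6.44, 6.42 and 6.39 and differences of 3.12, 1.30 and 0.24 for RGC against AC. Leaving out an array changed which was brightest, and the difference was 0.24 without BD RGC replicate 2, 0.28 without Cdh3 RGC replicate 2 and 0.26 without Isl2 RGC replicate 1. It was 1.27 to 1.33 without BD RGC replicate 1, Cdh3 RGC replicate 1, Isl2 RGC replicate 2, W3 RGC replicate 2, or either array of J RGC or W7 RGC. Genes with one probe set above and another below in every RGC array against every other array, each with a difference of means of at least 1 log2 unit, numbered 118 of 9010 with several probe sets (1.31%), and 2 of 48 here (4.17%, Stx18 and Stxbp2).

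Where a gene that passed had a second probe set, counted whether or not it was above the filter, it mostly gave the same direction. For RGC against AC 14 of 16 did, 9 of them by at least 1 log2 unit. For BC against AC 10 of 10 did, 7 by at least 1 unit. For BC against RGC 19 of 20 did, but 9 by at least 1 unit, and for GABAergic against glycinergic cells 8 of 11, 6 by at least 1 unit. For ON against MP bipolar cells only 2 of 4 did, and neither by 1 unit.

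**Figure D5:**
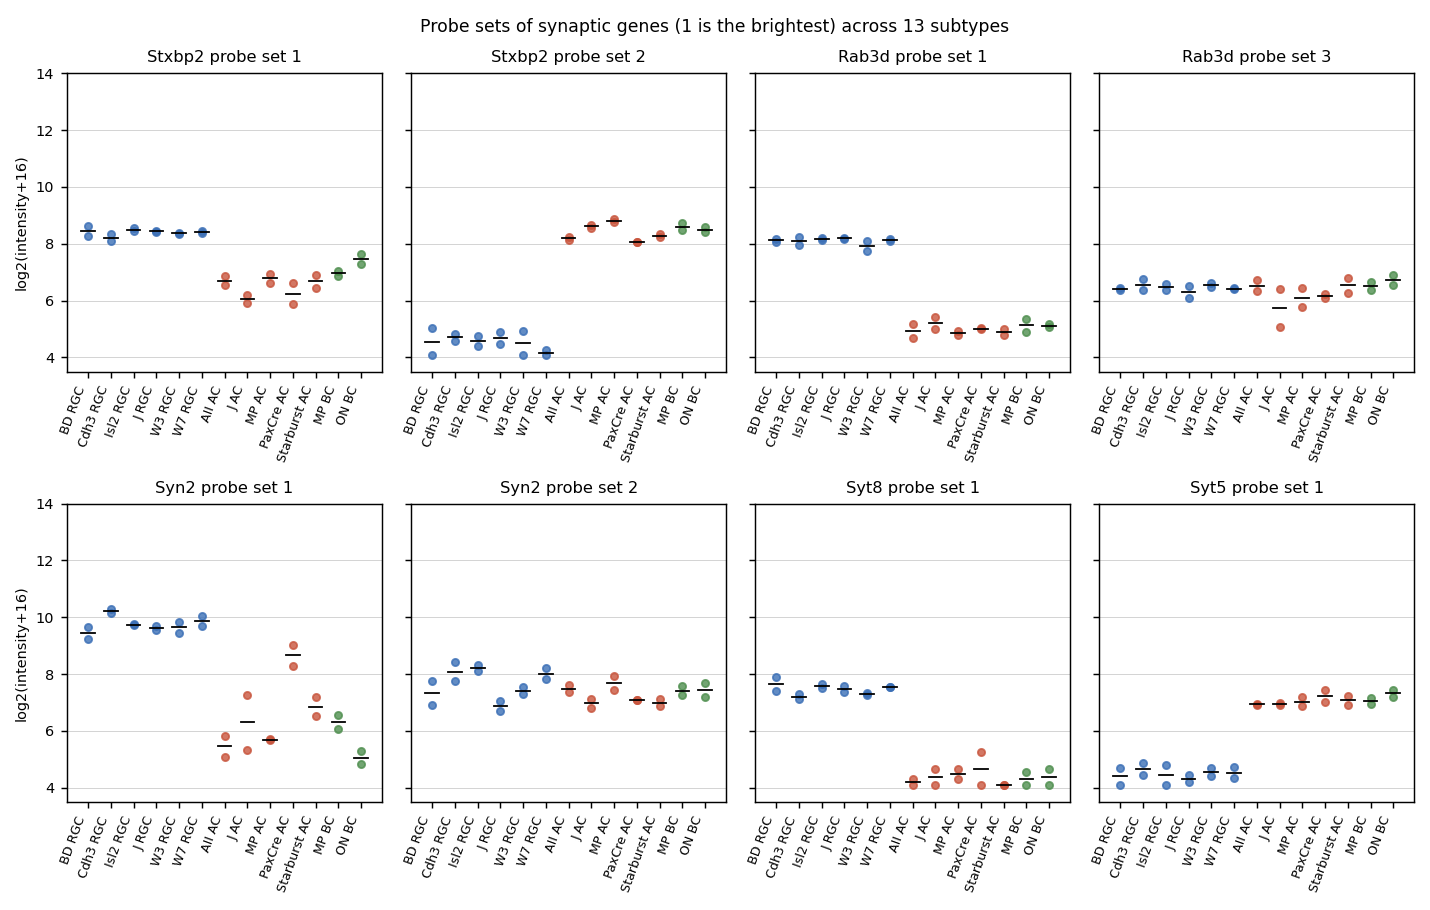
Log2(intensity + 16) of 8 probe sets (panels; 1 is the brightest of its gene) on each array (points) of the 13 subtypes, with bars at subtype means and colours by class (blue RGC, red AC, green BC). Stxbp2 probe sets 1 and 2 split RGC from the rest in opposite directions, and Rab3d probe set 3 lacks the split of probe set 1.

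Other genes of the release and recycling pathway gave a smaller share of differences. Of 52 listed, 49 were tested. Between ganglion and amacrine cells 5 were higher in RGC and 2 lower (14.3%, background 24.8): the synuclein Sncg, also a ganglion cell marker (6.85 ± 0.15), the active zone scaffold Rimbp2 (2.13 ± 0.12), the Rab effector Rph3al (1.53 ± 0.10), the calcium sensors Otof (1.47 ± 0.13) and Doc2a (1.35 ± 0.11), and, lower, the endophilin Sh3gl1 (-1.86 ± 0.11) and Doc2b (-1.39 ± 0.17). Between bipolar and amacrine cells 1 was higher and 5 lower (12.2%, background 10.4). Unc119, a photoreceptor and ribbon-synapse protein, was 2.29 ± 0.16 higher in BC, and the dynamin Dnm3 (-2.69 ± 0.13), the Rab3 effector Rph3a (-1.84 ± 0.22), synaptoporin Synpr (-1.81 ± 0.23), Doc2a (-1.38 ± 0.15) and the scaffold Erc2 (-1.10 ± 0.14) were lower.

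Against ganglion cells, bipolar cells had 3 higher and 12 lower (30.6%, background 29.6). The lower ones were 2 active zone scaffold, 3 vesicle membrane, 4 calcium-binding or dense core release, 1 chaperone and 2 endocytosis genes, not named here. Ctbp2, whose gene also encodes the ribbon protein Ribeye, was 1.47 ± 0.11 higher, as were Unc119 (2.49 ± 0.15) and Sh3gl1 (2.04 ± 0.15). GABAergic and glycinergic amacrine cells differed in 4 (8.16%, background 9), with Rph3a (1.90 ± 0.27), Ap2s1 (1.23 ± 0.22) and Svop (1.10 ± 0.21) higher and amphiphysin Amph (-1.17 ± 0.12) lower in GABAergic cells. ON and MP bipolar cells differed in Synpr alone (2.38 ± 0.39, 2.04% of 49, background 5.03). The disassembly genes Nsf, Napa, Napb and Napg passed in none of the 5 comparisons.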

How the data were processed

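Retinal RNA from 13 sorted neuron subtypes was hybridized to 26 single-colour Affymetrix arrays, 2 per subtype. The deposited values are linear intensity per probe set, with their software and scaling not given in the sources used here. As deposited, 3.37% of the intensity values equalled 1 and 170 lay below 1, so low levels are bounds, and the number of arrays limits the precision. Of the probe sets, 64 controls were left out, and the other 45037 were quantile normalized and taken as log2(intensity + 16), a scale that understates the change of dim genes. Symbols came from the platform annotation, updated by gene identifier. Of the probe sets 34945 had 1 symbol, 932 several (not used) and the rest are unnamed here, and the brightest stood for each of 18193 genes. Genes above the median of all values (6.14) on at least 2 arrays were tested. One linear model over the 13 subtype means was fitted with limma 3.58.1 in R 4.3.3 (13 residual and 4.59 prior degrees of freedom), with classes as means of subtype means and Benjamini-Hochberg adjustment over all 13951 genes, and the procedure was tested on simulated data.

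Named with values were Cplx3, Stx1a, Stxbp6, all complexins, synapsins, Sv2, Rab3, Rim and Unc13 genes, plasma membrane syntaxins, and the 6 strongest calls each way per comparison. Of the related pathway genes, those that passed were named, apart from the 12 lower in BC than in RGC. Others named, such as Opn1mw, Pecam1 and Vamp2, were chosen after their values were seen. The genes and lists were chosen with earlier results of these data known. The alternatives concerned scaling, pseudocount, filter, probe set, variance model, replicate block, strain, threshold, unit of replication and single arrays. The replicate numbers did not pair samples across subtypes.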

Additional observations from a re-analysis of the deposited data

How the results depend on the processing

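Of 163 differences that passed in the main setting, 60 passed in each of the 43 alternative settings that gave them a value, 86 were lost in at least 1 without reversing, and 17 reversed in at least 1. With the next brightest probe set, 42 of these genes were tested, so its counts do not compare directly with those out of 67. Of the 42, 9 passed for BC against AC (background 10.1%) and 1 for ON against MP BC (background 4.31%). Over the amacrine subtypes there were 43 calls (background 9.05%). With that probe set Stxbp2 gave -3.86 for RGC against AC and 4.02 for BC against RGC. Stx8 gave -0.041 for GABAergic against glycinergic AC and 0.83 in AII AC. Syn2 gave -0.19 for GABAergic against glycinergic AC, 0.55 in MP AC, 0.31 in AII AC and -0.20 in PaxCre AC. Sv2b gave 0.012 for GABAergic against glycinergic AC. Syn3 gave 0.11 and Syt7 -0.001 for ON against MP BC, and Vamp2, Vamp3 and Syt7 gave 0.13, 0.22 and -0.36 in MP AC. With the median over probe sets, 65 genes were tested and 8 passed for GABAergic against glycinergic AC (background 7.15%). Stxbp2 then gave -0.23 (RGC against AC) and 0.90 (BC against RGC), Syn3 0.11 (ON against MP BC) and Syt7 -0.58 (MP AC). The C57BL/6 subtypes leave out AII, MP AC, Cdh3 and MP BC and so give fewer subtype comparisons. Over them, BC against AC gave 26 (background 14.6%), the amacrine subtypes 34 (background 7.26%) and the ganglion cell subtypes 2 (background 1.02%). The F tests gave 20 in AC (background 13.9%) and 3 in RGC (background 3.89%). Sv2b, Syt17 and Syt7 then gave 0.50, 0.11 and -1.37 for GABAergic against glycinergic AC. With no minimum difference, 49 passed for RGC against AC (background 67.7%), 41 for BC against AC (background 34.1%) and 45 for BC against RGC (background 62.9%). GABAergic against glycinergic AC then gave 25 (background 27.5%) and the amacrine subtypes 113 (background 23%). A pseudocount of 1 gave 3 in the RGC F test (background 4.33%), and subtype means as units gave 1 for BC against AC (background 3.03%). Leaving out 1 array at a time gave 22 to 26 for RGC against AC, 15 to 18 for BC against AC, 27 to 30 for BC against RGC, 11 to 13 for GABAergic against glycinergic AC and 3 (without MP BC replicate 1) to 7 for ON against MP BC. It gave 67 to 72 over amacrine and 4 to 16 over ganglion cell subtypes, and 53 to 60, 34 to 38 and 2 to 16 in the F tests over all, AC and RGC subtypes, where 16 came without BD RGC replicate 1. Rab3d for BC against RGC ranged from -3.095 to 0.17, with 0.17, 0.13 and 0.15 without BD RGC replicate 2, Cdh3 RGC replicate 2 or Isl2 RGC replicate 1. Among the alternatives chosen after seeing the data, 1 left out both J RGC arrays. It gave 3 ganglion cell subtype calls (background 1.06%), 4 in the RGC F test (background 4.29%) and 0.14 for Rab3d in BC against RGC. Normalizing within each array set, also chosen then, reversed none of these differences and moved no count by over 1.5 times. The cause of these changes was not tested, except that for Rab3d another probe set became the brightest. The fit with the replicate number as a block gave the same counts (24, 15, 28, 13, 6, 71 and 6 calls, and 54, 35 and 7 in the F tests); correlations of replicate deviations over 78 pairs of subtypes ran from -0.228 to 0.374 (median 0.03), so the numbers were not taken to pair samples. The genes that passed were the same, apart from the amacrine F test, where 34 of the 35 were shared.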
